A study of Mus musculus with 3 samples.

Results

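Cholesterol handling was followed over 8 named genes of mouse regulatory T cells (Treg cells), the Foxp3-expressing T cells that restrain immune responses: Abca1, Abcg1, Mylip, Nr1h2, Srebf1, Srebf2, Hmgcs1 and Sqle. They were named with the spleen and large intestine values of these same files already known, so their spleen-to-intestine differences are descriptions and carry no test. A peak was given to a gene when its midpoint lay in the gene's body. All 8 genes had a peak (0 had none), together 94 of the 120910 peaks of the table, and 11946 of 55450 annotated genes had at least 1. H3K36me3 was profiled by chromatin immunoprecipitation sequencing (ChIP-seq) in Treg cells taken at steady state from spleen (SP) and large intestine (LI), with 1 library per tissue. Both groups were C57BL/6 mice with the genotype label Foxp3-YFP, the Foxp3Cre-YFP mice of the study's methods, which carry Cre recombinase and a yellow fluorescent protein under control of Foxp3, and cells were sorted as CD3+CD4+YFP+. Each library pooled cells of male and female mice, no floxed gene or treatment was named for either group, and the study's methods give age only as a general range of weeks for its mice. Another library, splenic Treg input chromatin, was not analysed here. With 1 library per tissue there was no replicate check, and no p-value could be given for any difference between the tissues.

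Cells keep their cholesterol level by balancing synthesis, uptake and export. When sterols are scarce, the SREBP transcription factors (genes Srebf1 and Srebf2) are cut free from the membrane and switch on synthesis enzymes such as Hmgcs1 and Sqle. When oxysterols accumulate, liver X receptors (LXR, among them LXR-beta from Nr1h2) act with RXR on the exporters Abca1 and Abcg1 and on Mylip, whose product limits the uptake of lipoproteins. H3K36me3 is laid down by Setd2 behind elongating RNA polymerase II and often increases towards the end of a transcribed gene. The mark was the only readout here: no RNA or protein value was used.

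Values are mean RPKM coverage over a peak, that is, coverage by reads per kilobase, scaled to sequencing depth. The peaks of a gene were added up in each library. Their LI over SP ratio was put on the log2 scale after adding 0.5 RPKM to each sum, and from it was taken the same ratio of the library totals, 0.046, so a negative ratio means more signal in spleen. A second scaling, by the median of the peak ratios, would subtract 0.031. The 95% counting interval given with a ratio takes each read to cover 200 bp and covers counting error only, not the difference between animals or preparations. The deposited values point to about 29600000 reads in the SP library and 38100000 in the LI library. Of the genes with a peak, 10886 reached 20 RPKM over both libraries; their median log2 ratio was 0.00 and their middle 50% lay between -0.20 and 0.24. In 6600 genes of at least 100 RPKM the ratios had an SD of 0.39. In pooled chromatin, fewer marked cells and less mark per cell cannot be told apart.

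All 10 Treg cell markers had peaks, with Foxp3 at 132.5 RPKM in SP and 156.3 in LI and Ctla4, an inhibitory receptor, at 66.1 and 103.2 RPKM. On the log2 ratio of LI over SP, 6 of these markers lay below 0 and 4 above (50.7% of all genes), with a median of -0.18. Their ratios ran from -0.56 to 0.80. The counting interval lay above 0 in 2 (17.5% of all genes), Ctla4 at 0.59 among them, and below 0 in 4 (15.0%). Those 4 were Ikzf2 (Helios) at 1205 RPKM in SP and 850.7 in LI (-0.55), Izumo1r at -0.56, Cd3e at -0.41 and Cd3g at -0.28. Among all 55450 annotated genes, 11946 had a peak. Of 15 myeloid markers, 3 had a peak (summed 213.2 RPKM in SP and 274.5 in LI). These were Cx3cr1 (183.5 and 243.2 RPKM), Csf1r (14.7 and 16.3 RPKM) and Cd68 (15.1 and 15.0 RPKM). Lyz2, Adgre1, Cd14, Itgam and C1qa were among those without one. Of 10 B cell markers, 4 had a peak (74.0 RPKM in each library), and Ms4a1 had none. Cd79a was higher in SP (47.2 and 29.8 RPKM). Higher in LI were Fcer2a (13.7 and 20.6 RPKM), Cd79b (8.96 and 13.7 RPKM) and Pax5 (4.05 and 9.91 RPKM). Of 14 markers of intestinal epithelium, 3 had a peak (37.2 RPKM in SP and 72.8 in LI, of which Epcam held 25.3 and 47.2), and Krt8, Cdh1 and Muc2 had none. The part of such cells in the differences given here was not tested.

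Abca1 and Sqle lay farthest apart among the 8 genes. Abca1 had 4.11-fold more summed H3K36me3 in SP Treg cells, and Sqle had 1.60-fold more in LI Treg cells. Abcg1 and Mylip were somewhat higher in SP, Srebf2 was somewhat higher in LI, and the counting intervals of Nr1h2, Srebf1 and Hmgcs1 included 0. By count, 4 of the 8 ratios lay above 0, against 50.7% of all 10886 genes. The counting interval lay above 0 for 2 members, against 17.5% of all genes, and below 0 for 3, against 15.0%. No member was more than 2-fold higher in LI, as were 3.42% of all genes, and 1 was more than 2-fold higher in SP, as were 2.04%. Over the 94 peaks, 58 were higher in SP (51.1% of all peaks), 22 were more than 2-fold higher there (9.65% of all peaks), and 5 were more than 2-fold higher in LI (9.0% of all peaks). Outside Abca1, 5 of 76 peaks were more than 2-fold higher in SP. The genes were chosen on this contrast, so nothing is read from these shares.

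**Figure D1:**
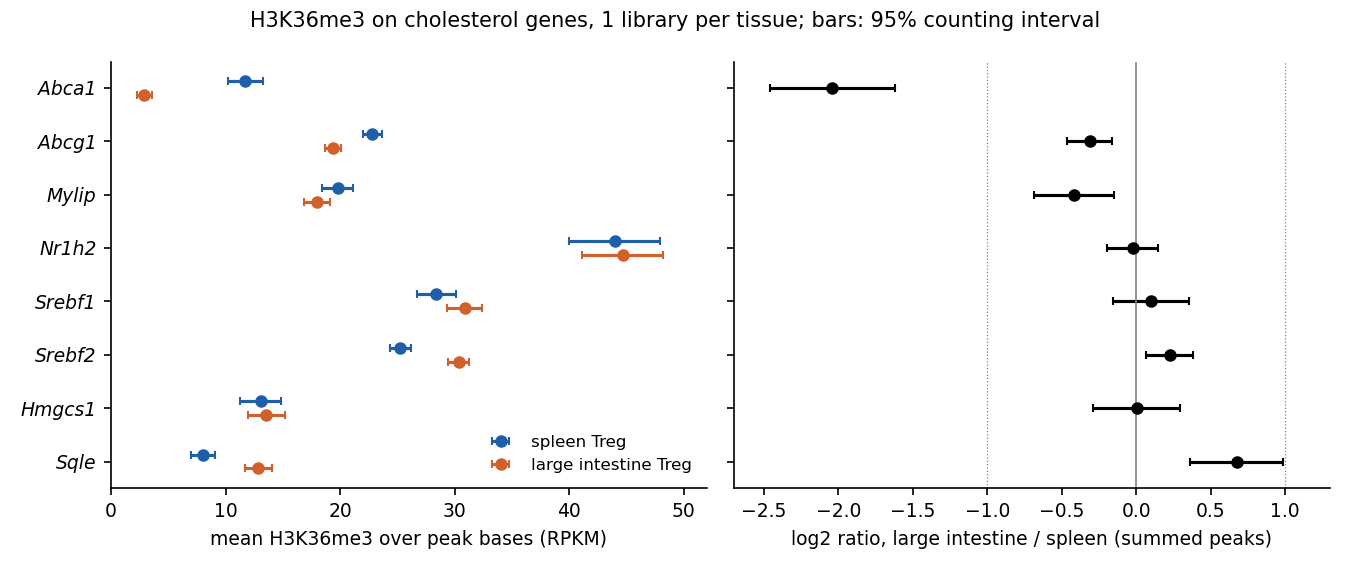
Left, mean H3K36me3 per covered base (RPKM) of the 8 genes in the SP and the LI Treg library; right, log2 ratio of the summed peaks, LI over SP, with dotted lines at 2-fold. Points are single libraries and bars 95% counting intervals; Abca1 lies at -2.04 and Sqle at 0.68, with the other genes between them.

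Sequences are shown for the 2 genes at the ends of this range and for the promoters of Abca1 and Hmgcs1. The Hmgcs1 promoter holds an exact match to a sterol-related motif, and the Abca1 promoter only a loose match, with 3 mismatches. The first peak below is the Abca1 peak with the lowest LI-to-SP ratio, and the second the Sqle peak of at most 300 bp with the highest. Both are read 5′ to 3′ on the strand of the gene, from mm10, with CG pairs, the sites of DNA methylation, in capitals. The Abca1 peak, chr4:53067873-53068072 on the minus strand, lies in an intron, is 36.5% GC and holds 1 CG pair. The Sqle peak, chr15:59323204-59323422 on the plus strand, also lies in an intron, is 47.0% GC and holds 2.
Abca1 intron peak: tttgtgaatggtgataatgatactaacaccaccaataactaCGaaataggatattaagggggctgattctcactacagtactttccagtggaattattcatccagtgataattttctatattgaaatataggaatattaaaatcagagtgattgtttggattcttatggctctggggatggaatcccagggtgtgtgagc
Sqle intron peak: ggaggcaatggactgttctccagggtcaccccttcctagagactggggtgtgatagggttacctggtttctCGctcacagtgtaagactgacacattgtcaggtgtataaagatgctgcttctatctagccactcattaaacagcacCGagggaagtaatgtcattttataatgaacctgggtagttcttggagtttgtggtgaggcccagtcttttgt
The Abca1 peak had 8.67 RPKM in SP and 0.13 in LI, and the Sqle peak had 6.42 RPKM in SP and 15.7 in LI. The LI value of this Abca1 peak is near the floor, below the 0.5 RPKM added before taking ratios, so its ratio depends on that setting.

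The sequence of promoters came from RefSeq (GRCm38.p6), whose table held 6 of the 8 genes, all but Abcg1 and Sqle, among 32851 promoters. The 250 bases before the start are shown for Abca1 and Hmgcs1, with motif matches in capitals. For Abca1 it is a match with 3 mismatches to a direct repeat of AGGTCA spaced by 4 bases (DR4, the kind of element LXR and RXR bind). For Hmgcs1 it is an exact match to the sterol regulatory element TCACNCCAC (the kind SREBP binds). Both strands were searched.
Abca1 promoter, chr4:53159896-53160145, minus strand: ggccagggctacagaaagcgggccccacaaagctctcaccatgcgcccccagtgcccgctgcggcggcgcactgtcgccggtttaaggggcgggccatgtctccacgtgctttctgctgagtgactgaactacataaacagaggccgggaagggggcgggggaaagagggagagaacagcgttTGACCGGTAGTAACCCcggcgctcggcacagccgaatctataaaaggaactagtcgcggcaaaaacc
Hmgcs1 promoter, chr13:119690101-119690350, plus strand: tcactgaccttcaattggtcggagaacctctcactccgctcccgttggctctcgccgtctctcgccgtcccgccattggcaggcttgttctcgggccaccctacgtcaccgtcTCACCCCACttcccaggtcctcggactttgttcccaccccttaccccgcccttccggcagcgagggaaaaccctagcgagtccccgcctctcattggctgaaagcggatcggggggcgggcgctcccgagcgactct
The sterol element lies 129 bases before the Hmgcs1 start, and 1.05% of all promoters held one. With at most 2 mismatches the DR4 was found in 0 of the 6 members and in 2.57% of all promoters. With at most 3 mismatches, a limit set after the sequences had been seen, it was found in Abca1 (52 bases before the start), Hmgcs1 (not marked above) and Srebf1 (not shown) and in 18.5% of all promoters. The matches describe these letters only. The first H3K36me3 peak of each body lay well inside it, 30.7 kb from the start in Abca1 and 9.57 kb in Hmgcs1, so the table held no H3K36me3 value for the stretch between.

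Abca1 encodes the transporter that hands cholesterol and phospholipid to lipid-poor apolipoprotein A-I (ENSMUSG00000015243.4, chr4:53030787-53159895, minus strand, 129.1 kb). Its 18 peaks summed to 201.6 RPKM in SP and 50.2 RPKM in LI, a log2 ratio of -2.04 (interval -2.46 to -1.62), with about 230 and 74 reads behind the sums. The SP library was the higher one by far. Every one of the 18 peaks was higher in SP, 17 of them by more than 2-fold, and single-peak log2 ratios ran from -3.91 to -0.85. The lowest came from an LI value of 0.13 RPKM, below the 0.5 RPKM added before taking ratios. In SP the peaks lay between 8.20 and 15.7 RPKM and in LI between 0.13 and 4.77, so the ranges of the 2 libraries did not overlap. Peaks called only in SP would be high there by selection. Which tissue's call gave each Abca1 peak is not recorded, so these peak counts and ranges are no separate support. In LI, 7.61% of all peaks had a value no higher than the highest on Abca1. Among peaks under 1 kb, as all those of Abca1 were, the share was 9.86%. The median peak of the table had 10.5 RPKM in LI and 10.4 in SP. Abca1 in LI Treg cells thus lay in the low tail of the LI values, and in SP Treg cells near the middle of the SP values.

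The peaks of Abca1 were short and sparse. They spanned at most 957 bp each, covered 6609 bp or 5.12% of the body (37.2% in the median gene of at least 20 RPKM), and 15 had their midpoint in an intron and 3 in an exon. Of 5 equal segments of the body, the first held no peak. In the following segments the log2 ratios were -1.93, -2.27, -2.01 and -1.78, so the difference was of like size along the part that held peaks. Per covered base the mean was 11.7 RPKM in SP (10.2 to 13.3) and 2.93 RPKM in LI (2.26 to 3.59). Median GC content was 48.9%, against 46.5% over all peaks, and the median peak held 0% annotated repeat. Peaks were called per tissue and then merged, so a gene whose peaks rest on 1 tissue enters the table at places where that tissue is high.

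Few genes had a ratio as low as that of Abca1. It was named with this contrast known, so its rank is a description and no support. Of the 10886 genes, 10 were lower, and of 6259 protein-coding genes with at least 100 RPKM, 61 were more than 2-fold higher in SP. Among those of at least 100 RPKM, close to Abca1 in ratio over these 2 libraries, was Atp1b1, a subunit of the sodium pump, at -1.83 (108.9 and 31.4 RPKM). Nsg2 followed at -1.76 (200.3 and 60.6 RPKM), Cnksr3 at -1.72 (151.1 and 47.1 RPKM) and Ramp1, a partner of the calcitonin receptor-like receptor, at -1.63 (86.9 and 28.6 RPKM). In each of these 4 genes every peak was higher in SP, which their choice by a low summed ratio makes likely. Of 3988 genes with 10 or more peaks, 50 had every peak higher in SP and 97 had every peak higher in LI.

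Abcg1 encodes the exporter that passes cholesterol on to high-density lipoprotein particles (ENSMUSG00000024030.7, chr17:31057675-31117988, plus strand, 60.3 kb). Its 25 peaks summed to 374.4 RPKM in SP and 310.9 in LI, a log2 ratio of -0.31 (interval -0.47 to -0.16), or 1.24-fold more in SP. SP was higher in 19 peaks and LI in 6, and 3 peaks were more than 2-fold higher in SP, the first of them 3.29 kb from the start at 9.88 and 2.31 RPKM. In contrast to Abca1, Abcg1 was covered over 70.4% of its body. Its longest peak, of 14606 bp, had 32.1 RPKM in SP and 26.9 in LI (log2 ratio -0.30). Along the 5 segments of the body the log2 ratio was -0.32, -0.29, -0.38, -0.15 and -0.29. The mean level was highest in the last segment in each library, at 30.9 RPKM in SP and 25.9 in LI.

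Mylip encodes IDOL, a ubiquitin ligase that limits the uptake of lipoproteins (ENSMUSG00000038175.10, chr13:45389742-45412022, plus strand, 22.3 kb). Its 13 peaks summed to 171.2 RPKM in SP and 132.3 in LI, a log2 ratio of -0.42 (interval -0.68 to -0.15), with SP higher in 11. The difference lay in the front of the gene. The log2 ratio was -0.51 and -0.61 in the first 2 of 5 segments, -0.12 in the middle one and -0.07 in the last, which held 1 peak of 8042 bp at 25.2 RPKM in SP and 24.7 in LI. Weighting peaks by their length therefore brought the ratio of Mylip to -0.22.

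**Figure D2:**
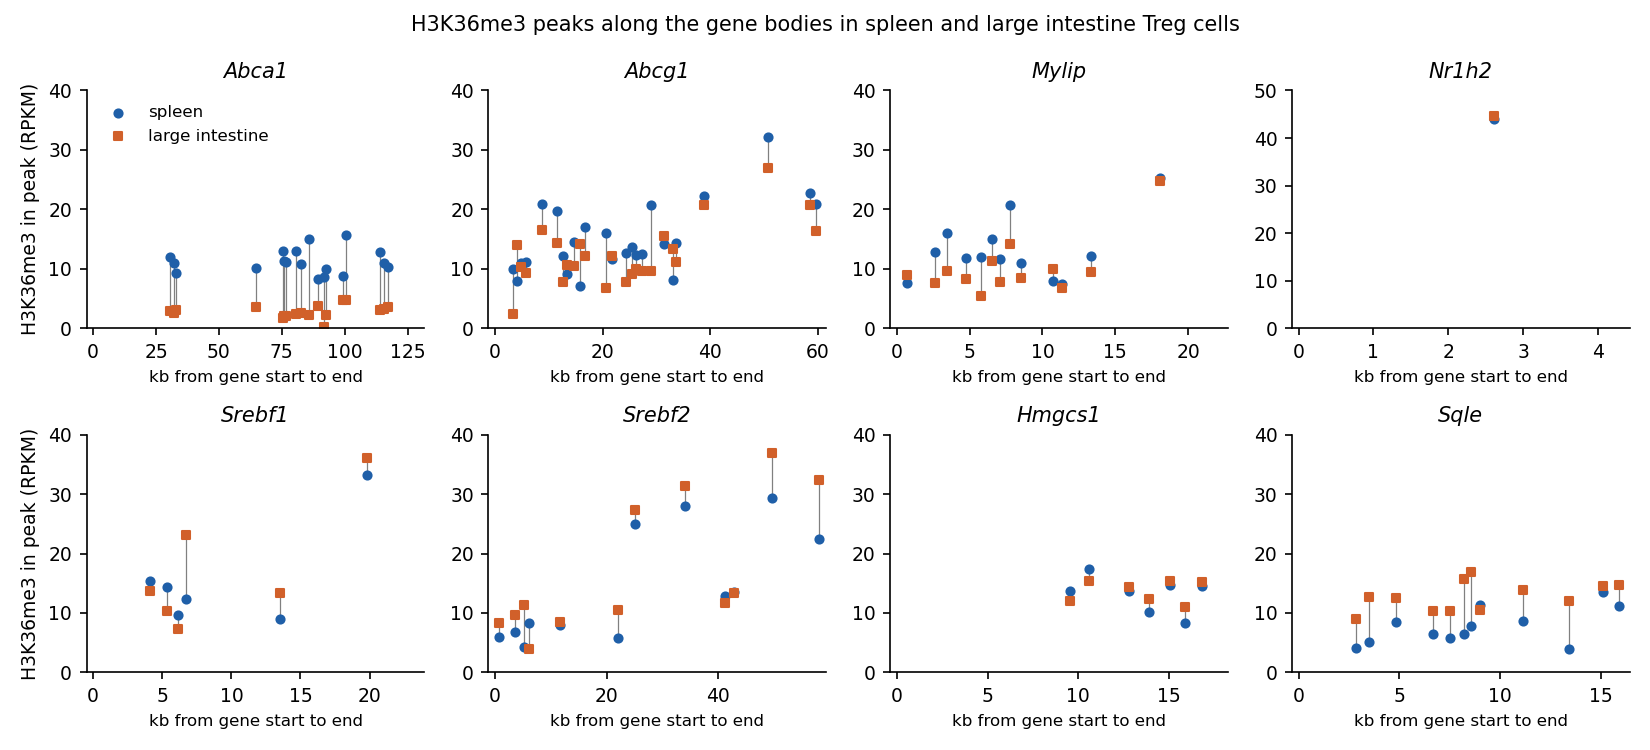
H3K36me3 (RPKM, vertical axis, up to 50 for Nr1h2 and 40 elsewhere) in each peak of the 8 genes against the distance of its midpoint from the gene start (kb, the axis ending at the gene end). Circles are the SP and squares the LI library, joined for each peak; the circles lie above the squares in all 18 peaks of Abca1, and the squares lie above the circles in 11 of 12 peaks of Sqle.

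Nr1h2 encodes LXR-beta, the LXR found in most cell types (ENSMUSG00000060601.13, chr7:44549616-44553951, minus strand, 4.34 kb). It held 1 peak, of 3654 bp over 81.9% of the body and 0.10 kb beyond its end, at 44.0 RPKM in SP and 44.7 in LI. The log2 ratio was -0.02 (interval -0.20 to 0.15), and the level was the highest of the 8 genes in each library. Its GC content of 58.3% was above the median over the peaks of each other member. Setting its ratio against peaks of like GC content gave -0.36. Nr1h3, which encodes the other receptor, LXR-alpha, had no peak.

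Srebf1 encodes SREBP-1, which mainly drives fatty acid synthesis and is itself an LXR target (ENSMUSG00000020538.15, chr11:60199089-60222581, minus strand, 23.5 kb). Its 6 peaks summed to 94.0 RPKM in SP and 103.9 in LI, a log2 ratio of 0.10 (interval -0.16 to 0.35). The peaks split evenly, 3 higher in SP and 3 in LI. One of 380 bp had 12.4 RPKM in SP and 23.2 in LI (log2 ratio 0.84), while the longest, 10039 bp at the end of the gene, had 33.2 and 36.1 RPKM. That longest peak ran past the end of Srebf1, where Rai1 overlaps it. With the correction for GC content the ratio of Srebf1 was -0.14, so neither library was higher under both.

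Srebf2 encodes SREBP-2, the main activator of cholesterol synthesis (ENSMUSG00000022463.8, chr15:82147181-82205379, plus strand, 58.2 kb). Its 12 peaks summed to 170.0 RPKM in SP and 205.2 in LI, a log2 ratio of 0.23 (interval 0.07 to 0.38), with LI higher in 9. The last 2 peaks of the gene, of 11566 and 5095 bp, had 29.4 and 22.5 RPKM in SP and 37.0 and 32.4 RPKM in LI. The last of them, with a log2 ratio of 0.47, ran 2.47 kb past the end of Srebf2 into Shisa8, whose own ratio was 0.74. In the 5 segments of the body the log2 ratio was 0.28, 0.77, 0.10, -0.11 and 0.37, so the LI excess was not even along the gene. Giving each peak to its nearest transcript start changed which peaks Srebf2 held and gave 0.56, and the correction for GC content gave 0.11.

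Hmgcs1 encodes the cytosolic synthase that makes HMG-CoA, an early step of the mevalonate pathway (ENSMUSG00000093930.2, chr13:119690379-119708260, plus strand, 17.9 kb). Its 7 peaks summed to 92.5 RPKM in SP and 95.7 in LI, a log2 ratio of 0.00 (interval -0.29 to 0.30). LI was higher in 5 peaks, yet no peak was more than 2-fold apart and single-peak ratios ran from -0.24 to 0.35. All peaks lay in the later part of the gene. The gene model Gm48342 overlaps 4 of them, and without these the ratio was 0.10.

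Sqle encodes squalene epoxidase, which adds the first oxygen to squalene and is a rate-limiting step of sterol synthesis (ENSMUSG00000022351.14, chr15:59315077-59331192, plus strand, 16.1 kb). Its 12 peaks summed to 92.6 RPKM in SP and 152.9 in LI, a log2 ratio of 0.68 (interval 0.36 to 0.99), with about 229 and 471 reads behind the sums. LI was higher in 11 of 12 peaks, by more than 2-fold in 4. The lone exception had 11.4 RPKM in SP and 10.5 in LI. In SP the peaks lay between 3.89 and 13.5 RPKM and in LI between 8.93 and 16.9, so the ranges of the libraries overlapped, unlike those of Abca1. The log2 ratio by segment was 1.00, 0.83, 0.70, 0.60 and 0.48, and so was lower in each later segment. The first segment held 1 peak, at 4.08 and 8.93 RPKM. Per covered base the mean was 8.04 RPKM in SP and 12.9 in LI. No midpoint of these peaks lay in another gene body, and 821 of the 10886 genes had a higher ratio than Sqle. That rank too is a description, as Sqle was named with this contrast known.

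Levels between genes were compared as mean RPKM per covered base. In SP the order was Nr1h2 (44.0), Srebf1 (28.4), Srebf2 (25.3), Abcg1 (22.8), Mylip (19.8), Hmgcs1 (13.1), Abca1 (11.7) and Sqle (8.04 RPKM). Only the neighbours Hmgcs1 and Abca1 had overlapping counting intervals in SP. In LI the order was Nr1h2 (44.7), Srebf1 (30.9), Srebf2 (30.4), Abcg1 (19.4), Mylip (18.0), Hmgcs1 (13.6), Sqle (12.9) and Abca1 (2.93 RPKM). The intervals overlapped in LI for Srebf1 and Srebf2, for Abcg1 and Mylip, and for Hmgcs1 and Sqle. The 6 leading genes stood in the same order in both libraries, and Abca1 and Sqle changed places at the bottom. The median gene had 12.5 RPKM in SP and 13.3 in LI.

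Most genes of a list of cholesterol synthesis enzymes were slightly higher in LI. The list was made with earlier results of these data known, so its shares are descriptions and carry no test. All 21 listed enzymes had enough signal, and 18 of them (85.7%, against 50.7% of all genes) had a ratio above 0, with a median of 0.33 against 0.00. None was past 2-fold in LI (3.42% of all genes) or in SP (2.04%). The counting interval lay above 0 in 7 (17.5% of all genes) and below 0 in 0 (15.0%). The highest ratio was that of Hsd17b7, a sterol ketoreductase, at 0.78 (50.2 RPKM in SP, 89.4 in LI). Sqle came next at 0.68, then Lss, which closes squalene epoxide into lanosterol, at 0.64 (83.5 and 134.3 RPKM). Fdft1 (squalene synthase, 0.46), Cyp51 (0.38) and Dhcr7 (0.36), named here for that interval, also had one above 0. At the low end stood Ebp at -0.35, with an interval that included 0, Lbr at -0.17 and Idi1 at -0.02. Leaving Hmgcs1 and Sqle out left 16 of 19 above 0 and a median of 0.33. Weighting peaks by length gave a median of 0.19 with 17 of 21 above 0. The correction for GC content gave 0.23 with 16 above 0.

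The SREBP machinery and the uptake genes lay nearer to the share over all genes. Of 10 SREBP system genes 6 had a ratio above 0 (60%, against 50.7% of all genes), with a median of 0.08. The counting interval lay above 0 in 2 (17.5% of all genes) and below 0 in 1 (15.0%). Mbtps2, the site-2 protease, had the highest ratio (1.07) but only 8.87 RPKM in SP and 19.7 in LI (interval -0.14 to 2.27). Scap, which escorts SREBP to the Golgi, had 0.16 (311.8 and 359.5 RPKM), and Sp1, a cofactor of SREBP, had -0.33 (211.4 and 173.0 RPKM). Mbtps1 had -0.15 and Insig1 -0.05, each with an interval that included 0. Of 15 measured of 18 uptake, storage and traffic genes, 8 lay above 0 (53.3%), with a median of 0.07. Here the interval lay above 0 in 3 and below 0 in 1. Lrp8 had 0.73 (76.9 and 132.3 RPKM), and Npc1, which moves cholesterol out of lysosomes, had 0.21. Gramd1b, which carries cholesterol from the plasma membrane to the endoplasmic reticulum, had -0.29 (583.0 and 492.2 RPKM), Stard3 -0.13 and Lipa -0.11.

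LXR target genes went both ways. Of 15 listed, 9 had enough signal, 4 above (44.4%, against 50.7% of all genes) and 5 below 0, with a median of -0.08. The counting interval lay above 0 in 2 (17.5% of all genes) and below 0 in 3 (15.0%). Abca1, Mylip and Abcg1 were the lowest 3 and the only ones with an interval below 0. All 3 are members, named with these values known, so their place is no result about LXR targets. Of the 5 measured genes that are not members, the lowest were Smpdl3a at -0.13 and Scd2 at -0.08, with intervals that included 0. Tmem135 had 0.62 (127.1 RPKM in SP, 202.3 in LI), Lpcat3, which remodels membrane phospholipid, had 0.57 (61.4 and 94.6 RPKM), and Arl4c had 0.29. Apoe, Abcg5, Abcg8, Pltp, Abcb4 and Nr1h3 had no peak. Among receptors and cofactors 10 of 13 were measured, 5 above (50%) and 5 below 0, with a median of 0.01. Their interval lay above 0 in 4 and below 0 in 0. Rxra, the partner of LXR, had 0.64 (122.1 and 197.2 RPKM, interval 0.44 to 0.85), Trrap 0.23 and Rxrb 0.20, while Ncoa1 had -0.26, Ncor1 -0.06 and Ncoa2 -0.04.

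Of 18 transporters of the ABCA and ABCG families, 6 had a peak. Abcg3 had 192.2 RPKM in SP and 121.4 in LI, a log2 ratio of -0.71 (interval -1.02 to -0.39). Abca7 had 0.32 (42.5 and 54.8 RPKM), Abca2 had 0.31 (64.0 and 82.1 RPKM) and Abca3 had 0.11 (375.9 and 418.1 RPKM). The ratio of Abca1 was thus the lowest of its family, and Abca2, Abca3 and Abca7 stood on the other side of 0.

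**Figure D3:**
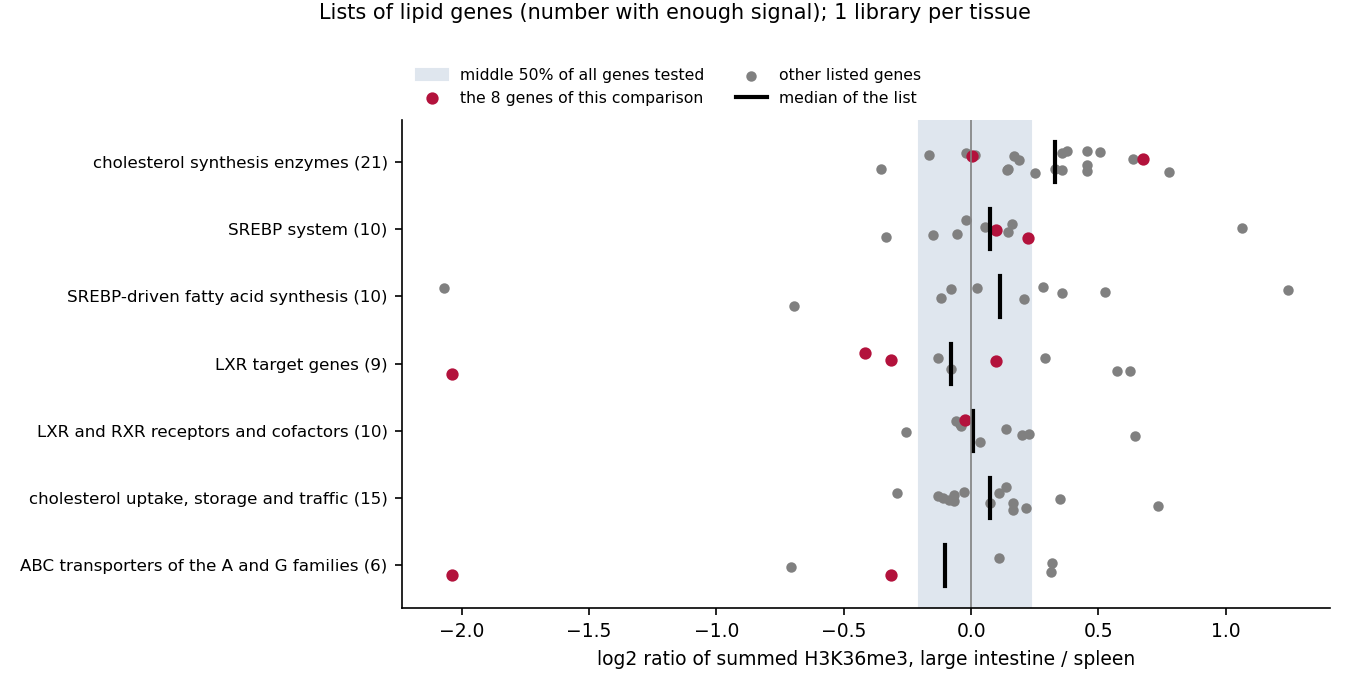
Log2 ratio of summed H3K36me3, LI over SP, of the genes of 7 lipid gene lists, each point a gene with at least 20 RPKM and the number of such genes in brackets; vertical offsets within a list carry no value. Red points are the 8 genes, bars list medians and the shaded band the middle 50% of all genes, -0.20 to 0.24; the synthesis enzymes have a median of 0.33, and Abca1 stands far to the left of its lists.

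Neighbouring genes gave a view of the surroundings of each member. Within 300 kb of Abca1, 1 of 7 protein-coding genes was measured: Nipsnap3b, 8.73 kb beyond its end, had 64.3 RPKM in SP and 59.1 in LI, a log2 ratio of -0.16 (interval -0.59 to 0.26). A difference of the size on Abca1 was not seen on Nipsnap3b, but with 1 measured gene nothing is read about the surroundings. All 3 neighbours of Sqle were lower in ratio than Sqle. These were Washc5, 0.81 kb downstream, at 0.22 (interval 0.06 to 0.39), Mtss1 at -0.30 and Nsmce2 at -0.79. Both neighbours of Mylip stood on the other side of 0, Gmpr at 0.77 (interval 0.07 to 1.46) and Atxn1 at 0.97 (interval 0.85 to 1.09).

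Around Abcg1, by contrast, 3 of 4 measured neighbours had ratios close to its own -0.31: Dnah8 at -0.39, Slc37a1 at -0.34 and Ubash3a at -0.17, each with an interval below 0. The fourth, Tmprss3, had 1.12 with an interval from -0.18 to 2.42. Srebf2 stood among 13 measured neighbours of which 11 lay above 0 (median 0.18), with Pmm1 at 0.89 among them. Nr1h2 had 11 measured neighbours between -0.42 and 0.63, Srebf1 had 7 between -0.56 (Tom1l2) and 0.26 (Rai1), and Hmgcs1 had 4 between -0.33 (Paip1) and 0.05 (Zfp131). Abcg1, Srebf2, Nr1h2, Srebf1 and Hmgcs1 thus lay within the range of their 4 to 13 measured neighbours. Abca1, Sqle and Mylip lay outside the values of theirs, but these were only 1, 3 and 2 genes. So few neighbours hardly give a range, so nothing is read from that. The intervals of Sqle and Washc5 also overlapped.

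**Figure D4:**
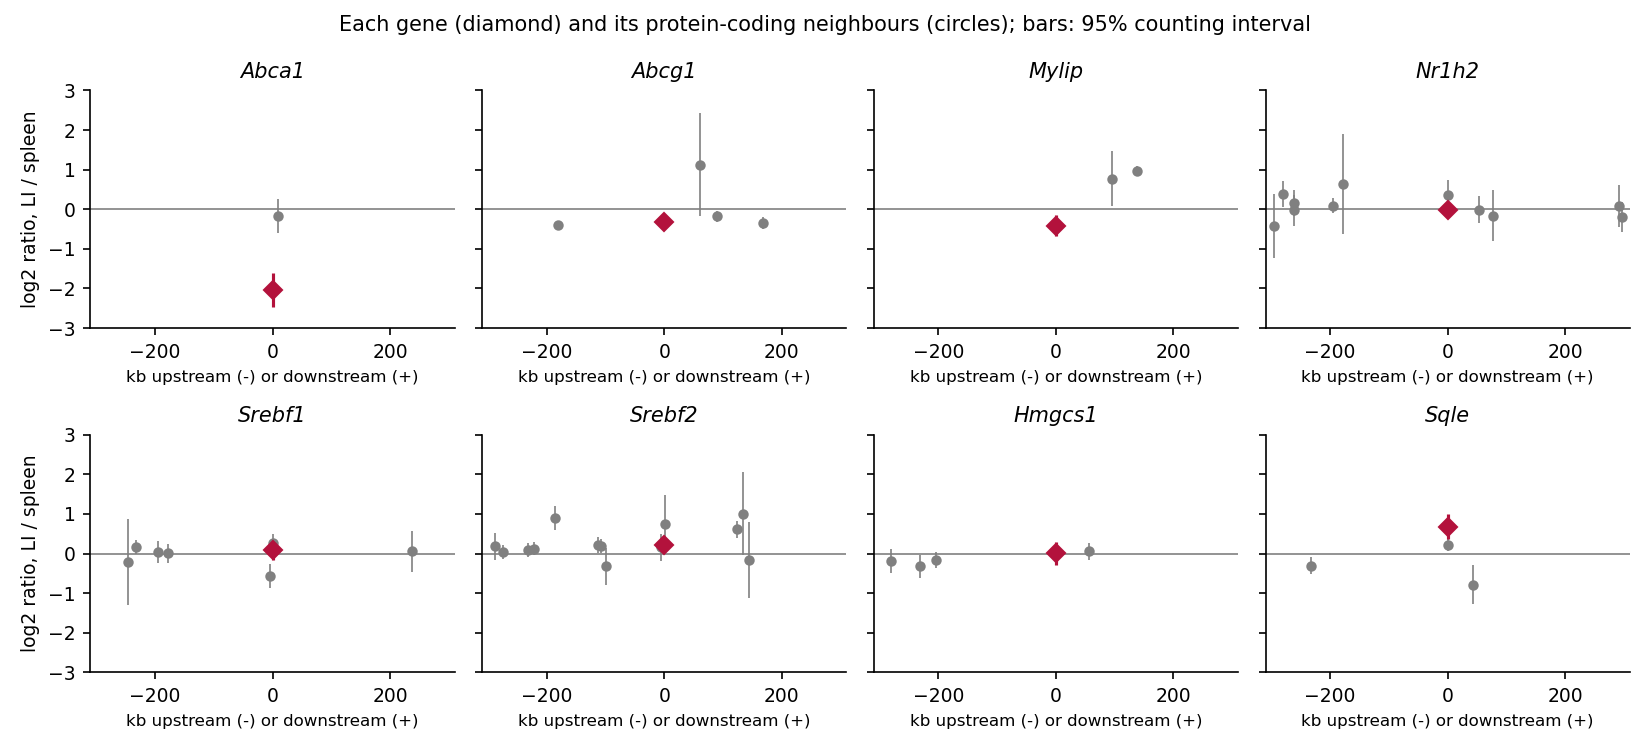
Log2 ratio of summed H3K36me3, LI over SP, of each of the 8 genes (diamond, at 0) and of measured protein-coding genes within 300 kb (circles), by the gap to the gene body in kb along its direction of transcription; bars are 95% counting intervals. The diamond of Abca1 (-2.04) lies below its neighbour, that of Sqle (0.68) above all 3 and that of Mylip (-0.42) below both.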

How the data were processed

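H3K36me3 ChIP-seq was analysed in 1 splenic and 1 large intestinal Treg library; the input was not used. Per the study's methods and the submitters' processing notes, the authors mapped 75-nt single-end reads to mm10 with Bowtie2, called peaks with MACS2 per tissue against the input (p of 0.01), merged the peaks with bedtools, and averaged RPKM-scaled coverage tracks over each merged peak; tool versions are not given in the sources used here. The deposited values are therefore mean RPKM per peak, though the table is labelled as raw counts, so no count model was used. Low values times peak length were whole multiples (within 0.05) of a step, 1.69 RPKM for the splenic and 1.31 RPKM for the intestinal library, in 100% of the 400 peaks checked per library, which with bins of 20 bp gives the depths stated. Reads per peak were not recovered; intervals take 200 bp per read and treat reads as independent.

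Peaks were assigned by midpoint to GENCODE M21 gene bodies (GRCm38.p6, the assembly of mm10; peaks past the chromosome end were found on 0 of 21), and sums, ratios and intervals were computed as described in the report with Python 3.11.15, numpy 2.4.6, pandas 2.3.3 and scipy 1.17.1 and figures with matplotlib 3.10.9. All 160 listed symbols were found in the annotation. The scripts were tested on simulated data. The genes named were the 8 members, the 3 genes farthest from 0 in each direction in each list, measured neighbours within 300 kb, and the 5 protein-coding genes nearest to Abca1 in ratio among those of at least 100 RPKM; a few genes that this rule names are not reported here. The members and lists were chosen with earlier results of these data known. Other scalings, pseudocounts, filters and peak assignments were tried as alternatives.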

Additional observations from a re-analysis of the deposited data

How the results depend on the processing

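Over the 8 genes, the alternatives that could be run gave 77 values, and 75 moved by less than the counting interval. The sign never changed for Abca1, Abcg1, Mylip, Sqle and Srebf2, whose intervals excluded 0. For the genes whose intervals included 0 it did change. Nr1h2 reached 0.02 with the deposited scaling, Srebf1 -0.14 with the correction for GC content, and Hmgcs1 -0.04 with peaks of 1 kb or longer. The log2 ratio ran from -2.09 to -1.92 for Abca1, from -0.44 to -0.27 for Abcg1, from -0.48 to -0.18 for Mylip, from 0.56 to 0.76 for Sqle, from -0.14 to 0.14 for Srebf1 and from -0.04 to 0.10 for Hmgcs1. The values that moved further were Nr1h2 with the correction for GC content (-0.36) and Srebf2 with peaks given to the nearest transcript start (0.56, from a different set of peaks). The number of genes more than 2-fold higher in LI, 372, became 623 with no filter and 70 with a filter at 200 RPKM. The number more than 2-fold higher in SP, 222, became 459, 39 and, with a pseudocount of 5, 145. The median of the synthesis enzymes ran from 0.19 to 0.34. An interval with 75 bp per read, added after seeing the data, was narrower, for Abca1 -2.30 to -1.78. Abca1 had no peak of 1 kb or longer, Nr1h2 no peak beside its strongest, and Hmgcs1 no peak by nearest transcript start, so these alternatives gave no value. No paired analysis was possible because each tissue had 1 library. What depth limits is the weakly marked genes, such as Abca1 in LI with about 74 reads; differences between animals were not measured.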

Other observations

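Fatty acid synthesis genes, the other arm that SREBP drives, went both ways. Of 15 listed, 10 had enough signal, 6 with a log2 ratio of LI over SP above 0 (60%, against 50.7% of all genes) and a median of 0.12. The counting interval lay above 0 in 4 (17.5% of all genes) and below 0 in 2 (15.0%). Elovl6, which lengthens palmitate, was more than 2-fold higher in LI (25.9 RPKM in SP and 63.9 in LI, log2 ratio 1.24, interval 0.58 to 1.91). Fasn, fatty acid synthase, had 71.6 and 106.4 RPKM (0.52, interval 0.24 to 0.81), and Acaca, acetyl-CoA carboxylase, had 179.4 and 237.2 RPKM (0.36, interval 0.07 to 0.64). Acsl3, an acyl-CoA synthetase, had 21.7 RPKM in SP and 4.96 in LI over 2 peaks (-2.07, interval -3.53 to -0.61), and Acsl1, another, had 89.1 and 56.6 RPKM (-0.69, interval -1.20 to -0.19). Elovl5 had -0.12. Scd1, Scd3, Fads2, Acacb and Me1 had no peak.

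Of 8 oxysterol enzymes and receptors, 3 had a peak. Gpr183, the oxysterol receptor EBI2 that guides lymphocyte migration, had 104.3 RPKM in SP and 131.1 in LI (0.28, interval 0.02 to 0.55). Hsd3b7, which breaks down the ligand of EBI2, had 31.1 and 13.7 RPKM over 2 peaks (-1.20, interval -2.20 to -0.21), and Sult2b1 had 9.59 RPKM in SP (0.47, interval -0.82 to 1.77). Ch25h and Cyp7b1, which make that ligand, had no peak.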
